A study of Homo sapiens with 16 samples.

Results

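The heat shock transcription factor HSF1 and 9 cytosolic, nuclear and mitochondrial chaperone genes (HSPA1A, HSPA1B, HSPA8, HSPH1, DNAJB1, HSP90AA1, HSP90AB1, HSPB1 and HSPD1) were followed through the series. The genes were chosen by symbol, each matched to 1 Ensembl identifier in both count tables, which gave 10 genes out of 67938 identifiers. RNA had been sequenced from the nucleus and the cytoplasm of SNU-449 cells, a hepatocellular carcinoma line with mesenchymal traits, and of HepG2 cells, a liver cancer line that keeps many hepatocyte traits. In each line, cells received either a mixture of 2 siRNAs named siPANAD-1 and siPANAD-2 (siPANAD) or the control named NC, and were taken 48 h later. PANAD is the product of C7orf25, which the series' title links to the mRNA export receptor NXF1. The 8 groups were therefore SNU-449 nucleus siPANAD and NC, SNU-449 cytoplasm siPANAD and NC, HepG2 nucleus siPANAD and NC, and HepG2 cytoplasm siPANAD and NC. Each group held 2 libraries, described by the submitters as biological duplicates. The p-values rest on the spread between duplicates, estimated over all groups of a line, or of both lines, together. That estimate also draws on other genes, so it is not the spread of the compared groups alone. The siRNA mixture was given as a pool in all siPANAD groups, so the 2 siRNAs cannot be told apart, and no heat or other stress is named in the labels.

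Heat shock proteins are molecular chaperones that bind unfolded polypeptides and hold, refold or pass them on. HSF1 is the transcription factor that, once released from chaperones during proteotoxic stress, trimerises, binds heat shock elements in promoters and raises the transcription of the inducible genes. HSPA8, HSP90AB1 and HSPD1 are made in unstressed cells as well, whereas HSPA1A and HSPA1B are the classic stress-inducible HSP70 genes. Liver cancers often hold high levels of several of them.

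The heat shock element is built from inverted repeats of the unit GAA. It was searched as 3 units (GAANNTTCNNGAA, both strands) and as 2 units facing inward (GAANNTTC, its own reverse complement) in the RefSeq promoter windows of GRCh38.p14, over the 250 bases before each annotated start. The 9 chaperone genes had 15 windows. The 3-unit form was found in 4 of the 9 genes, the 2-unit form alone in another 4, and neither in the single window of HSPH1. Among all 35116 windows, 0.441% held the 3-unit form and 5.78% the 2-unit form, which every 3-unit match also contains. The stretches below are shown because they set the genes with 3 units beside those with 2, and because HSPA1A and HSPA1B carry nearly the same bases. Capitals mark the matched repeat, and each is written along the gene's own strand.
HSPA1A, chr6:31815431-31815450, plus strand: accctgGAATATTCccgacc
HSPA1B, chr6:31827627-31827646, plus strand: cccctgGAATATTCccgacc
HSPA8, chr11:123062173-123062197, minus strand: ggccccTTCTGGAAGGTTCtaagat
DNAJB1, chr19:14518461-14518480, minus strand: ggggcgGAAGGTTCtggagg
HSP90AA1, chr14:102087114-102087138, minus strand: gggttcTTCCGGAAGGTTCgggagg
HSP90AB1, chr6:44247772-44247796, plus strand: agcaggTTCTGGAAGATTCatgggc
HSPB1, chr7:76302485-76302504, plus strand: acgagaGAAGGTTCcagatg
HSPD1, chr2:197500062-197500090, minus strand: gcattTTCTGGAAAGTTCTGGAAccgagc
A further match lay in the windows of HSPA8, HSP90AB1 and DNAJB1. The HSPD1 stretch holds 2 overlapping matches. The matches describe letters only, and the HSPD1, HSP90AA1 and HSPA8 stretches lie within annotated exons.

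Total counts ran from 16238235 to 30321908 per library. The HepG2 cytoplasm NC replicate 2 library was the deepest, and the next held 19498081. That pair also differed most from each other, at 33 by chi-square over its degrees of freedom, against 4.48 to 12.3 in the other 7 pairs. MALAT1, a nuclear RNA, was at 370.2 to 633.8 CPM, here read counts relative to each library's total, in nuclear and 2.21 to 5.84 CPM in cytoplasmic libraries. The summed level of 3 nuclear RNAs (MALAT1, NEAT1 and KCNQ1OT1) was 962 to 3279 CPM in nuclei and 7.33 to 15.4 CPM in cytoplasm in SNU-449, and 1675 to 3753 CPM in nuclei and 61.2 to 97.3 CPM in cytoplasm in HepG2. Albumin mRNA was at 7167 to 9895 CPM in HepG2 and had 0 to 6 counts in SNU-449. The 6 mesenchymal markers do not mark SNU-449 as a list: vimentin was at 1080 to 1750 CPM in SNU-449 and had 0 to 4 counts in HepG2, but the sum was 3694 and 3833 CPM in SNU-449 NC nuclei, against 7281 and 7371 CPM in HepG2 NC nuclei, where FN1, which hepatocytes also make, held 7216 and 7314 CPM. The targeted gene C7orf25 had 0 to 7 counts in every library, which cannot check the knockdown. Unless stated otherwise, the levels below are CPM after TMM scaling within a line, a method that brings the typical gene to a common level in every library. They are relative levels, and in bulk RNA fewer cells making an mRNA cannot be told apart from less mRNA per cell.

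With siPANAD some of the genes moved alike in the 2 lines and others in opposite directions. HSPA8 rose in the cytoplasm of both lines, and HSPH1, HSP90AB1 and HSPD1 fell in the nucleus of both. Those nuclear calls were lost in some alternative fits, given below, for HSPH1 in both lines, HSP90AB1 in SNU-449 and HSPD1 in HepG2. In HepG2, HSPA1A, HSPA1B and DNAJB1 rose in both fractions, HSF1 fell in both, and HSP90AB1 and HSPD1 rose in the cytoplasm. In SNU-449, HSPA1A fell in both fractions, HSPB1 fell in the nucleus, HSPA1B, DNAJB1 and HSPD1 fell in the cytoplasm, and HSP90AA1 rose there. A gene was called changed at an adjusted p under 0.05 in edgeR's quasi-likelihood test with Benjamini-Hochberg adjustment over all genes tested in that line. By that rule 0 of the 10 genes were higher and 5 lower in the SNU-449 nucleus, where 46% of all 17895 genes were called, 22.1% higher and 23.9% lower. The SNU-449 cytoplasm had 2 higher and 4 lower, against 39.7% of all genes called, 19.6% higher and 20.1% lower. The HepG2 nucleus had 3 higher and 4 lower, against 45.6% of all 17499 genes called, 22% higher and 23.6% lower. The HepG2 cytoplasm had 6 higher and 1 lower, against 47.9% of all genes called, 23.7% higher and 24.2% lower. The median log2 fold change over the 10 genes was -0.23 in the SNU-449 nucleus, -0.10 in the SNU-449 cytoplasm, -0.08 in the HepG2 nucleus and 0.57 in the HepG2 cytoplasm, beside medians over all genes of -0.01, 0.04, -0.03 and -0.00. Without the deep NC replicate 2 library, the HepG2 cytoplasm had 7 higher and 1 lower, with HSPA8 at 1.71, HSPD1 at 0.72 and HSF1 at -0.88 on the log2 scale. Leaving out 1 library gave 2 to 6 calls among the 10 genes in the SNU-449 nucleus, 4 to 6 in the SNU-449 cytoplasm, 5 to 7 in the HepG2 nucleus and 6 to 8 in the HepG2 cytoplasm. With calls this common among all genes, the number of the 10 called is not read as a result, and the sizes and directions carry the description.

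**Figure D1:**
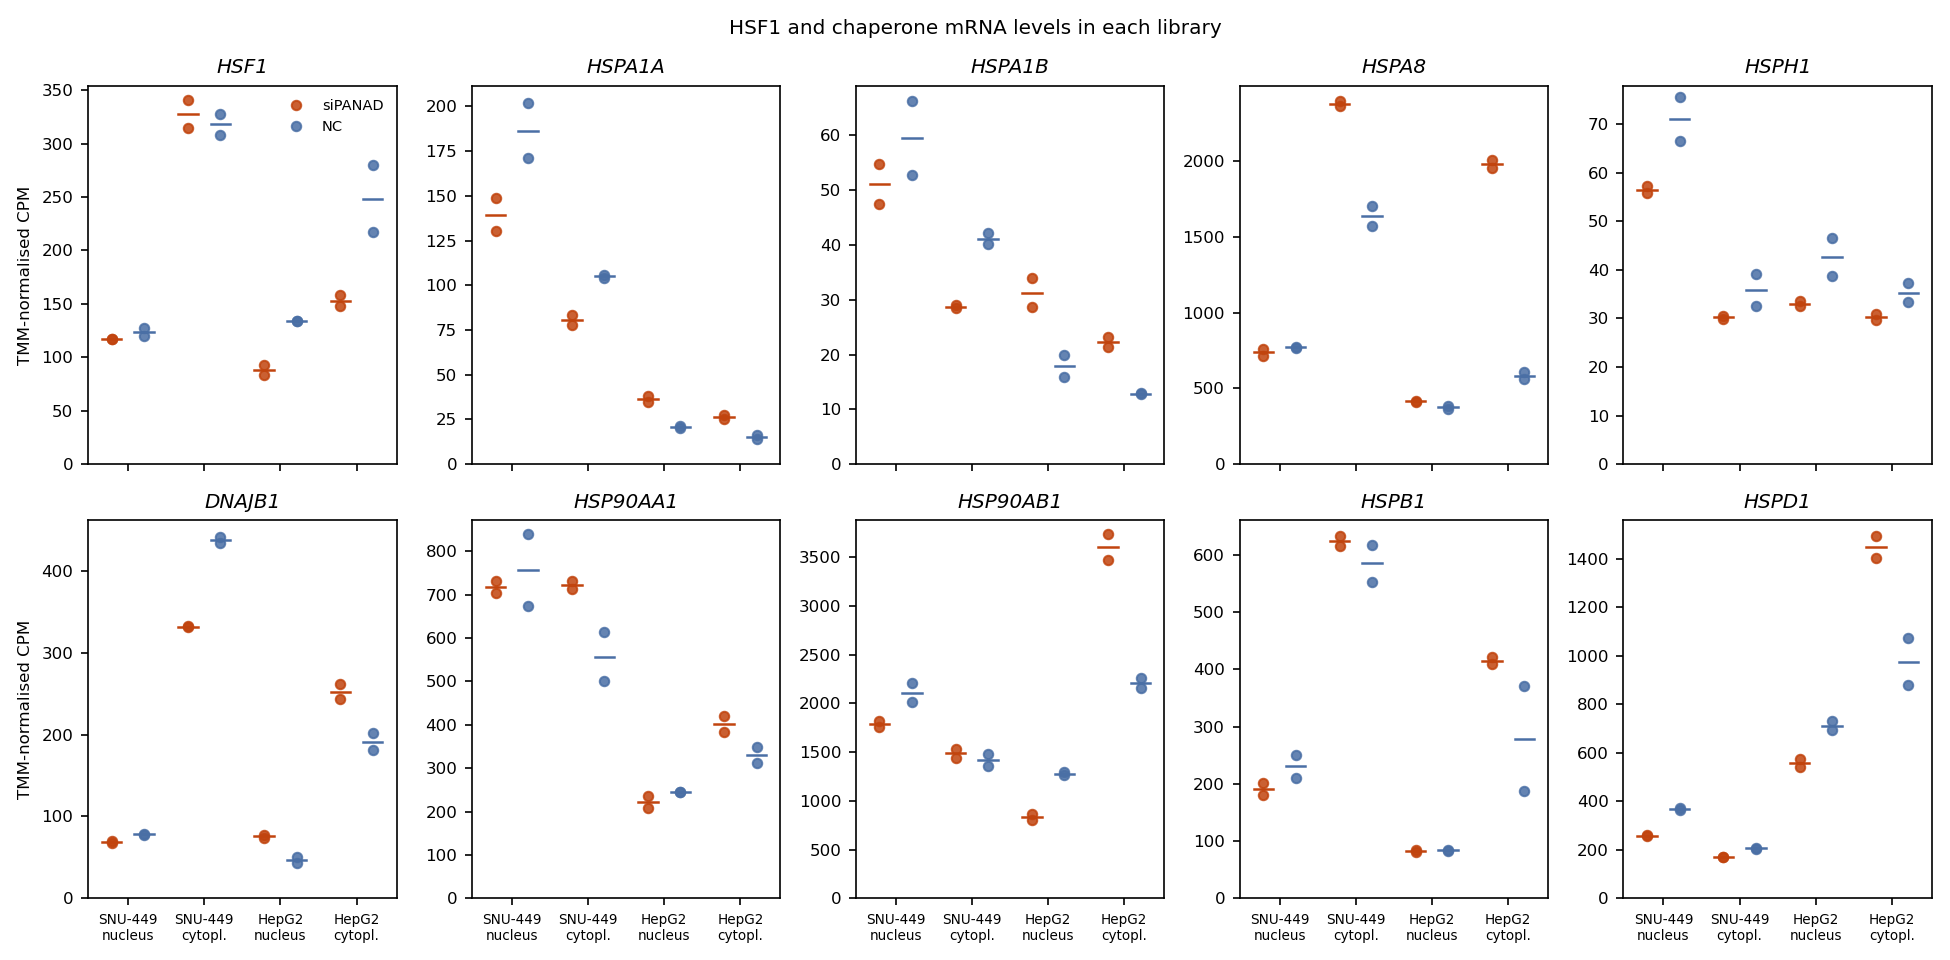
TMM-normalised CPM (vertical axis, starting at 0, with a scale of its own in each panel) of the 10 genes in each of the 16 libraries, by line and fraction. Points are libraries, bars the mean of 2, siPANAD in orange and NC in blue: HSPA8 in the HepG2 cytoplasm stands at 2013 and 1960.1 CPM with siPANAD, against 607 and 560.5 CPM in NC.

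HSF1 mRNA (ENSG00000185122, chromosome 8, 144291591 to 144314722, plus strand, GRCh38) did not pass the test in SNU-449. It was at 117 and 117 CPM in the siPANAD nuclei, against 120.1 and 127 CPM in NC nuclei, a log2 fold change of -0.08 (SE 0.09). In the SNU-449 cytoplasm it stood at 341 and 315 CPM with siPANAD and 308 and 328 CPM in NC (log2 fold change 0.04, SE 0.09). The 2 groups overlapped in the cytoplasm and lay side by side in the nucleus, with edgeR adjusted p-values of 0.482 in the nucleus and 0.733 in the cytoplasm. In HepG2 nuclei HSF1 was at 83.2 and 92.7 CPM with siPANAD, against 134 and 134 CPM in NC. In the HepG2 cytoplasm it was at 148 and 158 CPM with siPANAD, against 280.2 and 217 CPM in NC. The HepG2 groups did not overlap in either fraction, and HSF1 was 1.52-fold lower in the nucleus (log2 fold change -0.60, SE 0.13; edgeR adjusted p = 6.8e-04) and 1.63-fold lower in the cytoplasm (-0.70, SE 0.13; edgeR adjusted p = 1.1e-04).

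HSPA1A (chromosome 6, 31815464 to 31817946, plus strand) and HSPA1B (chromosome 6, 31827735 to 31830255, plus strand) encode the same inducible HSP70 in single-exon genes. Of the 100-base windows of their transcripts, 67.3% of those of HSPA1A and 68.8% of those of HSPA1B are shared between the 2, so how the counts divide between them is uncertain. HSPA1A stood at 149 and 130.1 CPM in SNU-449 nuclei with siPANAD, against 202 and 171 CPM in NC. In the SNU-449 cytoplasm it was at 78 and 83.5 CPM with siPANAD, against 104 and 106 CPM in NC. All siPANAD libraries of SNU-449 lay below the NC libraries of the same fraction, and HSPA1A fell 1.33-fold in the nucleus (log2 fold change -0.42, SE 0.09; edgeR adjusted p = 4.6e-04) and 1.3-fold in the cytoplasm (-0.38, SE 0.10; edgeR adjusted p = 0.0023). The cytoplasmic call was lost without siPANAD replicate 1 of the SNU-449 cytoplasm, where the value was -0.31.

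In HepG2 nuclei HSPA1A was at 38 and 35 CPM with siPANAD, against 20.3 and 21.4 CPM in NC. In the HepG2 cytoplasm it was at 27.6 and 25.3 CPM with siPANAD, against 16.1 and 14.1 CPM in NC. Here the siPANAD libraries were the higher ones in both fractions: HSPA1A rose 1.75-fold in the nucleus (log2 fold change 0.81, SE 0.13; edgeR adjusted p = 1.9e-05) and 1.76-fold in the cytoplasm (0.82, SE 0.14; edgeR adjusted p = 3.0e-05). HSPA1B rose by about the same, 0.80 (SE 0.14) in the HepG2 nucleus and 0.79 (SE 0.15) in the HepG2 cytoplasm on the log2 scale, with edgeR adjusted p-values of 5.4e-05 and 1.2e-04. In the SNU-449 cytoplasm HSPA1B was at 29 and 28.5 CPM with siPANAD, against 42.1 and 40.2 CPM in NC, and fell 1.43-fold (log2 fold change -0.52, SE 0.12; edgeR adjusted p = 6.5e-04). Its nuclear value in SNU-449, -0.22 (SE 0.11; edgeR adjusted p = 0.090), did not pass. With the counts of both genes summed, the pair fell by 0.37 in the SNU-449 nucleus (edgeR adjusted p = 0.0017) and by 0.42 in its cytoplasm (edgeR adjusted p = 7.6e-04), and rose by 0.80 in each HepG2 fraction.

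The 2 genes also divided the HSP70 counts differently by line. HSPA1A had 2.48 to 3.25 times the counts of HSPA1B in the 8 SNU-449 libraries and 1.07 to 1.29 times in the 8 HepG2 libraries, with no overlap. Exons of AL671762.1 cover 36.5% of HSPA1B on the same strand.

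HSPA8 (chromosome 11, 123057489 to 123063230, minus strand) encodes HSC70, the constitutive HSP70 of the cytosol and nucleus. It had the largest change of the 10 genes. In the HepG2 cytoplasm it stood at 2013 and 1960.1 CPM with siPANAD, against 607 and 560.5 CPM in NC, a 3.40-fold rise (log2 fold change 1.77, SE 0.14; edgeR adjusted p = 8.7e-11). In the HepG2 nucleus the values were 413 and 419 CPM with siPANAD and 385 and 364 CPM in NC, and the log2 fold change of 0.15 (SE 0.13; edgeR adjusted p = 0.365) did not pass. The cytoplasmic groups lay far apart while the nuclear ones lay close together. SNU-449 had the same order at a smaller size: 2397 and 2367 CPM with siPANAD in the cytoplasm, against 1574 and 1705 CPM in NC, was a 1.45-fold rise (log2 fold change 0.54, SE 0.09; edgeR adjusted p = 6.2e-06). Its SNU-449 nuclei held 763 and 717 CPM with siPANAD and 766 and 777 CPM in NC (log2 fold change -0.06, SE 0.09; edgeR adjusted p = 0.611). Exons of HSPA8 overlap the small nucleolar RNAs SNORD14C and SNORD14D over 3.61% of their bases.

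HSPH1 (chromosome 13, 31134974 to 31162388, minus strand) encodes HSP105, a nucleotide exchange factor for HSP70. In SNU-449 nuclei it was at 57.2 and 55.7 CPM with siPANAD, against 75.5 and 66.4 CPM in NC, and fell 1.26-fold (log2 fold change -0.33, SE 0.10; edgeR adjusted p = 0.008). In HepG2 nuclei it was at 33.5 and 32.6 CPM with siPANAD, against 46.6 and 38.8 CPM in NC (log2 fold change -0.37, SE 0.13; edgeR adjusted p = 0.023). Both nuclear calls had groups that did not overlap, but the SNU-449 call was lost without NC replicate 1 or siPANAD replicate 2 of the nucleus, and the HepG2 call in 7 of 15 alternatives. The cytoplasmic values, -0.25 (SE 0.12) in SNU-449 and -0.23 (SE 0.13) in HepG2, did not pass, with edgeR adjusted p-values of 0.084 and 0.173.

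DNAJB1 (chromosome 19, 14514770 to 14529770, minus strand) encodes HSP40, the J-domain protein that brings clients to HSP70 and starts its ATP hydrolysis. In the SNU-449 cytoplasm it was at 331 and 333 CPM with siPANAD, against 434 and 442 CPM in NC, and fell 1.32-fold (log2 fold change -0.40, SE 0.09; edgeR adjusted p = 2.6e-04). In SNU-449 nuclei it was at 70.4 and 67.7 CPM with siPANAD, against 78.5 and 77.8 CPM in NC (log2 fold change -0.18, SE 0.09; edgeR adjusted p = 0.103), which did not pass. The HepG2 nuclei turned the other way, with 73.2 and 77.9 CPM with siPANAD, against 42.7 and 51 CPM in NC, a 1.61-fold rise (log2 fold change 0.69, SE 0.13; edgeR adjusted p = 1.4e-04). The HepG2 cytoplasm held 262 and 243 CPM with siPANAD, against 181 and 202 CPM in NC, a 1.32-fold rise (log2 fold change 0.40, SE 0.13; edgeR adjusted p = 0.012). That last call was lost with no filter on low counts and without NC replicate 1 or either siPANAD replicate of the HepG2 cytoplasm. Exons of TECR and MIR639 on the other strand overlap 6.21% of the exonic bases of DNAJB1.

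The cytosolic HSP90 pair consists of HSP90AA1, the more stress-inducible alpha form (chromosome 14, 102080738 to 102139699, minus strand), and HSP90AB1, the constitutive beta form (chromosome 6, 44246166 to 44253888, plus strand). HSP90AA1 stood at 731 and 714 CPM in the SNU-449 cytoplasm with siPANAD, against 614 and 501 CPM in NC, a 1.3-fold rise (log2 fold change 0.37, SE 0.10; edgeR adjusted p = 0.004). The groups did not overlap, and the call was lost without NC replicate 2 of the SNU-449 cytoplasm. In the other 3 comparisons HSP90AA1 did not pass: the log2 fold changes were -0.07 (SE 0.10) in the SNU-449 nucleus, -0.13 (SE 0.13) in the HepG2 nucleus and 0.28 (SE 0.13) in the HepG2 cytoplasm, with edgeR adjusted p-values of 0.582, 0.418 and 0.073. The last of these passed without NC replicate 2 of the HepG2 cytoplasm (0.36; edgeR adjusted p = 0.030) and with upper-quartile scaling (0.41; edgeR adjusted p = 0.0093).

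HSP90AB1 split by fraction in HepG2. Its HepG2 nuclei held 799 and 867 CPM with siPANAD, against 1292 and 1262 CPM in NC, 1.53-fold lower (log2 fold change -0.62, SE 0.14; edgeR adjusted p = 7.9e-04). Its HepG2 cytoplasm held 3471 and 3733 CPM with siPANAD, against 2157 and 2256 CPM in NC, a 1.63-fold rise (0.71, SE 0.14; edgeR adjusted p = 1.5e-04). The siPANAD libraries were thus below all NC libraries in the nucleus and above them in the cytoplasm. In SNU-449 nuclei HSP90AB1 was at 1817 and 1762 CPM with siPANAD, against 2205 and 2013 CPM in NC (log2 fold change -0.24, SE 0.09; edgeR adjusted p = 0.031), a call lost in 10 of 15 alternatives. In the SNU-449 cytoplasm it was at 1442 and 1529.9 CPM with siPANAD, against 1362 and 1478 CPM in NC, where the groups overlapped (log2 fold change 0.07, SE 0.09; edgeR adjusted p = 0.609).

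HSPB1 (chromosome 7, 76302544 to 76304295, plus strand) encodes HSP27, an ATP-independent small heat shock protein that holds unfolding proteins. In SNU-449 nuclei it was at 202 and 181 CPM with siPANAD, against 251 and 211 CPM in NC, and fell 1.21-fold (log2 fold change -0.28, SE 0.10; edgeR adjusted p = 0.018), a call lost with upper-quartile scaling and without NC replicate 1 or siPANAD replicate 2 of the nucleus. The SNU-449 cytoplasm, at 633 and 616 CPM with siPANAD and 552 and 618 CPM in NC, did not pass (log2 fold change 0.09, SE 0.09; edgeR adjusted p = 0.464). Neither did the HepG2 nucleus, at 80.9 and 84.4 CPM with siPANAD and 83 and 85.2 CPM in NC (log2 fold change -0.02, SE 0.27; edgeR adjusted p = 0.952). In the HepG2 cytoplasm HSPB1 was at 409 and 421 CPM with siPANAD, and the NC libraries stood apart from each other at 371 and 187 CPM. The log2 fold change there was 0.57 (SE 0.27; edgeR adjusted p = 0.123), 1.14 without NC replicate 1, where it passed, and 0.16 without NC replicate 2.

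HSPD1 (chromosome 2, 197486581 to 197516737, minus strand) encodes HSP60, the chaperonin of the mitochondrial matrix. SNU-449 nuclei held 255 and 262 CPM with siPANAD, against 364 and 374 CPM in NC, 1.43-fold lower (log2 fold change -0.51, SE 0.09; edgeR adjusted p = 7.1e-06). The SNU-449 cytoplasm held 169 and 171 CPM with siPANAD, against 204 and 207 CPM in NC (log2 fold change -0.27, SE 0.09; edgeR adjusted p = 0.012). The 2 SNU-449 fractions moved the same way, though the cytoplasmic call was lost with upper-quartile scaling and without NC replicate 2 or either siPANAD replicate of that fraction. In HepG2 the cytoplasm went the other way, with 1493 and 1404 CPM with siPANAD, against 878 and 1072 CPM in NC, a 1.49-fold rise (log2 fold change 0.57, SE 0.14; edgeR adjusted p = 0.0014). HepG2 nuclei held 575 and 541 CPM with siPANAD, against 729.7 and 693 CPM in NC (log2 fold change -0.35, SE 0.14; edgeR adjusted p = 0.042), a call lost in 8 of 15 alternatives. HSPE1, the co-chaperonin gene whose exons overlap 6.62% of those of HSPD1 on the other strand, had log2 fold changes of -0.57 (SE 0.12) in the SNU-449 nucleus, 0.47 (SE 0.13) in the SNU-449 cytoplasm, -0.12 (SE 0.65) in the HepG2 nucleus and -0.09 (SE 0.62) in the HepG2 cytoplasm, of which edgeR's quasi-likelihood test called the 2 in SNU-449.

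**Figure D2:**
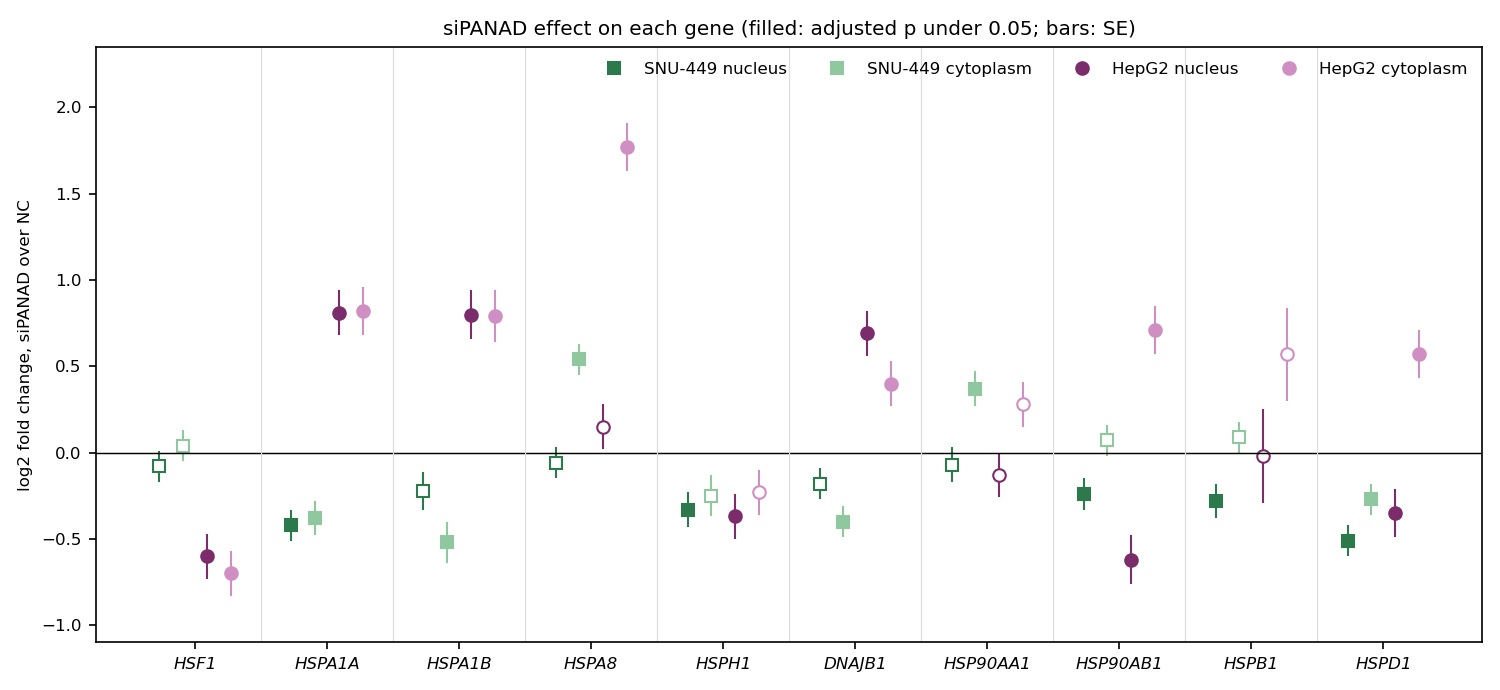
Log2 fold change of siPANAD over NC (vertical axis) for each gene in the nucleus and cytoplasm of SNU-449 (squares) and HepG2 (circles), with bars of 1 standard error and filled symbols for an edgeR adjusted p under 0.05. HSPA8 in the HepG2 cytoplasm is highest at 1.77, and HSPA1A and HSPA1B lie near 0.80 in both HepG2 fractions and below 0 in SNU-449.

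The split between fractions was already uneven in NC cells. HSPA1A and HSPA1B were relatively higher in the nucleus of both lines, HSF1, HSPA8, DNAJB1 and HSPB1 relatively higher in the cytoplasm of both, and HSP90AA1, HSP90AB1 and HSPD1 were higher in the nucleus of SNU-449 and in the cytoplasm of HepG2. In SNU-449 NC, 6 of the 10 genes were higher in the nucleus and 4 lower (all genes: 79.8% called, 43.5% higher and 36.2% lower, median log2 ratio 0.22). In HepG2 NC, 2 were higher and 7 lower (all genes: 77.1% called, 39.4% higher and 37.7% lower, median 0.04). At these shares a call is the common outcome, so the sizes carry the description. DNAJB1 leaned furthest to the cytoplasm, with a log2 nucleus to cytoplasm ratio of -2.49 (SE 0.09) in SNU-449 and -2.03 (SE 0.13) in HepG2. HSPB1 came next in HepG2 with -1.73 (SE 0.28), while in SNU-449 HSF1 (-1.36) and HSPB1 (-1.34, SE 0.10) lay side by side. HSPD1 had 0.85 (SE 0.09) in SNU-449 and -0.45 (SE 0.14) in HepG2, where the call was lost without NC replicate 2 of the cytoplasm (-0.25) and with upper-quartile scaling, as was that of HSP90AA1 in HepG2 with the same scaling. The HepG2 call of HSPA1B was lost without NC replicate 2 of the nucleus. HSP90AB1 had 0.57 (SE 0.09) in SNU-449 and -0.79 (SE 0.14) in HepG2, both called. HSPH1 was 1.98-fold higher in SNU-449 nuclei (log2 ratio 0.98, SE 0.11; edgeR adjusted p = 2.2e-10) and did not pass in HepG2 (0.27, SE 0.13; edgeR adjusted p = 0.061), though it did without NC replicate 2 of either HepG2 fraction and with 3 other settings. The difference between the lines in these NC ratios was not tested.

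The nuclear minus the cytoplasmic siPANAD effect gives how far the nucleus to cytoplasm ratio of a gene shifted, and it was negative, toward the cytoplasm, for each gene that was called. In SNU-449, 0 of the 10 genes had a higher and 3 a lower ratio, against 20.2% of all genes called, 9.69% higher and 10.5% lower. In HepG2, 0 had a higher and 3 a lower ratio, against 9.89% of all genes called, 4.91% higher and 4.98% lower. HSPA8 was the gene called in both lines. Its nuclear CPM was 0.311 of the cytoplasmic CPM with siPANAD and 0.471 in NC in SNU-449, a shift of -0.60 (SE 0.13; edgeR adjusted p = 6.0e-04). In HepG2 the same ratio was 0.209 with siPANAD and 0.642 in NC, a shift of -1.61 (SE 0.19; edgeR adjusted p = 1.7e-05). HSPA8 passed the test in the cytoplasm of both lines and in the nucleus of neither.

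In HepG2, HSP90AB1 had a nucleus to cytoplasm ratio of 0.231 with siPANAD and 0.579 in NC, a shift of -1.32 (SE 0.20; edgeR adjusted p = 1.3e-04). HSPD1 had 0.385 with siPANAD and 0.73 in NC, a shift of -0.92 (SE 0.20; edgeR adjusted p = 0.0035). Without NC replicate 2 of the HepG2 cytoplasm the shifts were -1.53 for HSPA8, -1.32 for HSP90AB1 and -1.04 for HSPD1, all called by the same edgeR test. HSP90AB1 and HSPD1 were lower in the nucleus and higher in the cytoplasm with siPANAD. In SNU-449, HSP90AA1 had a ratio of 0.995 with siPANAD and 1.36 in NC, a shift of -0.45 (SE 0.15; edgeR adjusted p = 0.027), and HSPB1 had 0.306 with siPANAD and 0.396 in NC, a shift of -0.37 (SE 0.13; edgeR adjusted p = 0.047). Both of these SNU-449 calls were lost in 6 or more of 14 alternatives, among them leaving out either siPANAD replicate of the cytoplasm. HSPA1A and HSPA1B changed by nearly the same amount in both HepG2 fractions, with shifts of -0.01 (SE 0.19) and 0.01 (SE 0.21), and HSF1 had 0.10 (SE 0.19), none of them called by edgeR's quasi-likelihood test.

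Markers of the fractions moved with siPANAD too. Their levels are given as CPM of each library's total, without TMM scaling, and so are not on the scale of the 10 genes. The sum of the 3 nuclear RNAs was 3165 and 3279 CPM in SNU-449 nuclei with siPANAD, against 962 and 979 CPM in NC, and 3753 and 3330.2 CPM in HepG2 nuclei with siPANAD, against 1675 and 1806 CPM in NC. NEAT1 made up most of it, at 2526 and 2682 CPM in SNU-449 nuclei with siPANAD, against 546.6 and 563.1 CPM in NC. The groups overlapped for MALAT1 in HepG2 nuclei, and KCNQ1OT1 was lower with siPANAD in the nuclei of both lines. The sum of the cytoplasmic markers GAPDH, ACTB and EEF1A1 was 8545 and 8076 CPM in SNU-449 nuclei with siPANAD, against 12673 and 13023 CPM in NC, and 5787 and 5666 CPM in HepG2 nuclei with siPANAD, against 6967 and 6883 CPM in NC. In the cytoplasm it was 15586 and 14988 CPM with siPANAD, against 14399.7 and 13769 CPM in NC in SNU-449, and 32806 and 33382 CPM with siPANAD, against 23549.7 and 26338 CPM in NC in HepG2. The nuclear sum was thus higher and the cytoplasmic sum lower in siPANAD nuclei of both lines, and their part in the nuclear changes and ratio shifts of the 10 genes was not tested.

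**Figure D3:**
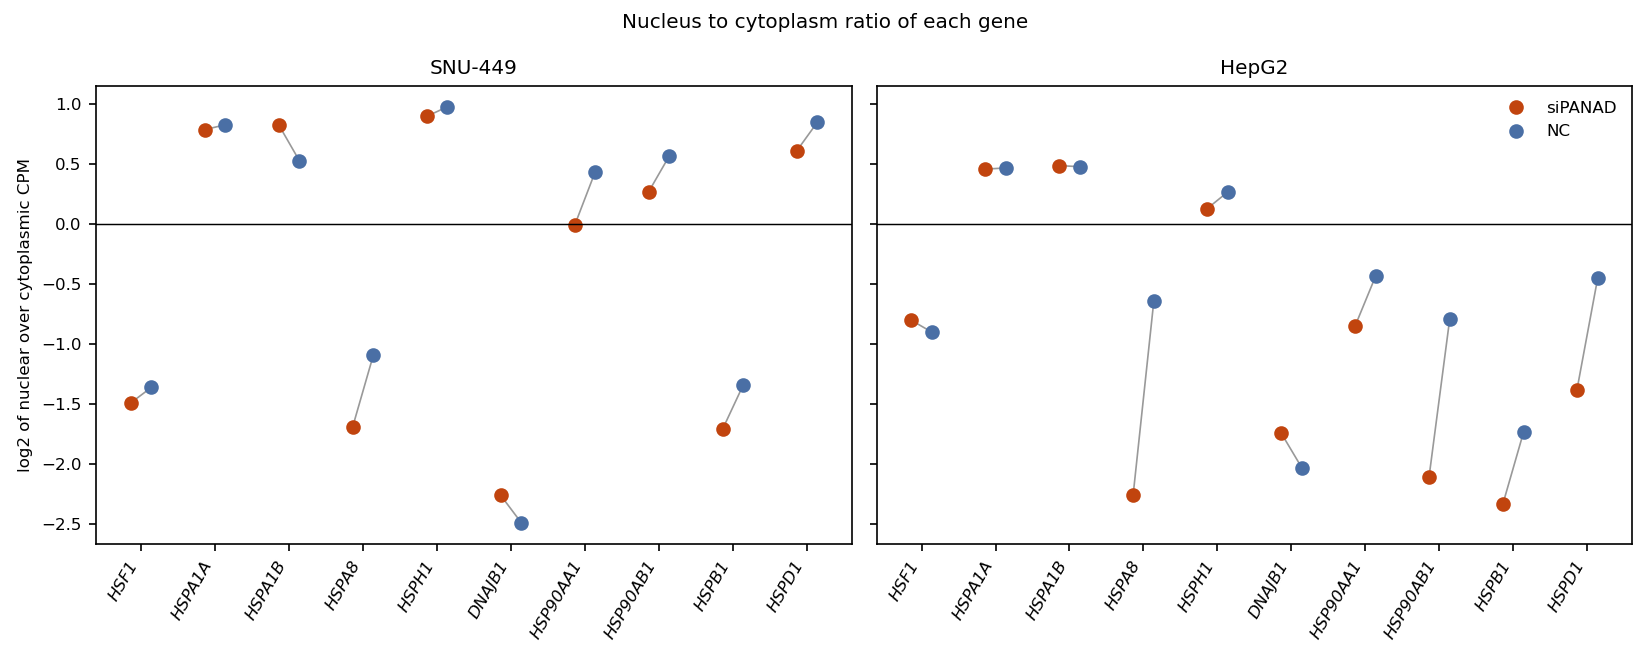
Log2 ratio of nuclear to cytoplasmic mean CPM (vertical axis; 0 means equal relative levels) for each gene with siPANAD (orange, left) and NC (blue, right) in SNU-449 and HepG2. In HepG2 the orange points of HSPA8 (-2.26), HSP90AB1 (-2.11) and HSPD1 (-1.38) lie well below their NC points, at -0.64, -0.79 and -0.45.

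The lines also differed in their NC levels. On a scale set over all 16 libraries, SNU-449 had more mRNA of HSPA1A, HSPA1B, HSPA8, DNAJB1, HSP90AA1 and HSPB1 in both fractions and less of HSPD1. In the NC nuclei 8 of the 10 genes were higher and 1 lower in SNU-449, against 75.5% of all 20459 genes called, 39.1% higher and 36.5% lower. In the NC cytoplasm 7 were higher and 2 lower, against 71.2% called, 34.3% higher and 36.9% lower. HSPA1A stood at 205 and 172 CPM in SNU-449 nuclei, against 20.4 and 21.6 CPM in HepG2 nuclei, an 8.99-fold difference (log2 3.17, SE 0.13; edgeR adjusted p = 4.2e-27). In the cytoplasm it stood at 103 and 108 CPM in SNU-449, against 16.3 and 14.3 CPM in HepG2, a 6.91-fold difference (log2 2.79, SE 0.13; edgeR adjusted p = 2.2e-24). HSPD1 was the reverse: the cytoplasm held 200.4 and 211 CPM in SNU-449, against 889 and 1089.8 CPM in HepG2, 4.81-fold lower in SNU-449 (a log2 difference of -2.27, SE 0.12; edgeR adjusted p = 8.1e-22). Summing the counts of HSPA1A and HSPA1B gave 2.67 in the nucleus and 2.37 in the cytoplasm on the log2 scale. The cytoplasmic difference of HSPB1, 1.05 (SE 0.24), was lost with only the groups compared in the fit. HSP90AB1 changed sides with the fraction, at 0.73 (SE 0.12) in the nucleus and -0.65 (SE 0.12) in the cytoplasm. The 2 lines were counted in separate tables and differ throughout, so line and any batch cannot be told apart.

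Per exonic kilobase, HSP90AB1 had the highest level of the 10 genes and HSPH1 the lowest in all 4 NC groups. HSP90AB1 reached 677 to 754 CPM per kb in SNU-449 nuclei, 449.7 to 505 in the SNU-449 cytoplasm, 427 to 435 in HepG2 nuclei and 733 to 769.6 in the HepG2 cytoplasm. HSPH1 lay at 7.93 to 9.17 CPM per kb in SNU-449 nuclei, 3.95 to 4.6 in the SNU-449 cytoplasm, 4.66 to 5.57 in HepG2 nuclei and 4.01 to 4.52 in the HepG2 cytoplasm. The second place went to HSPA8 in SNU-449 nuclei (161 to 161 CPM per kb), where HSPA8 and HSP90AA1 overlapped, as did HSP90AA1 and HSPB1. In the SNU-449 cytoplasm HSPB1 (332 to 385) came second and overlapped HSPA8 (319 to 358). HSPD1 was second in HepG2, at 165 to 173 CPM per kb in nuclei and 209 to 257 in the cytoplasm, where it overlapped HSPB1 (117 to 230.2). The inducible HSPA1A lay at 41.3 to 43.4 CPM per kb in the SNU-449 cytoplasm and 5.76 to 6.58 in the HepG2 cytoplasm.

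**Figure D4:**
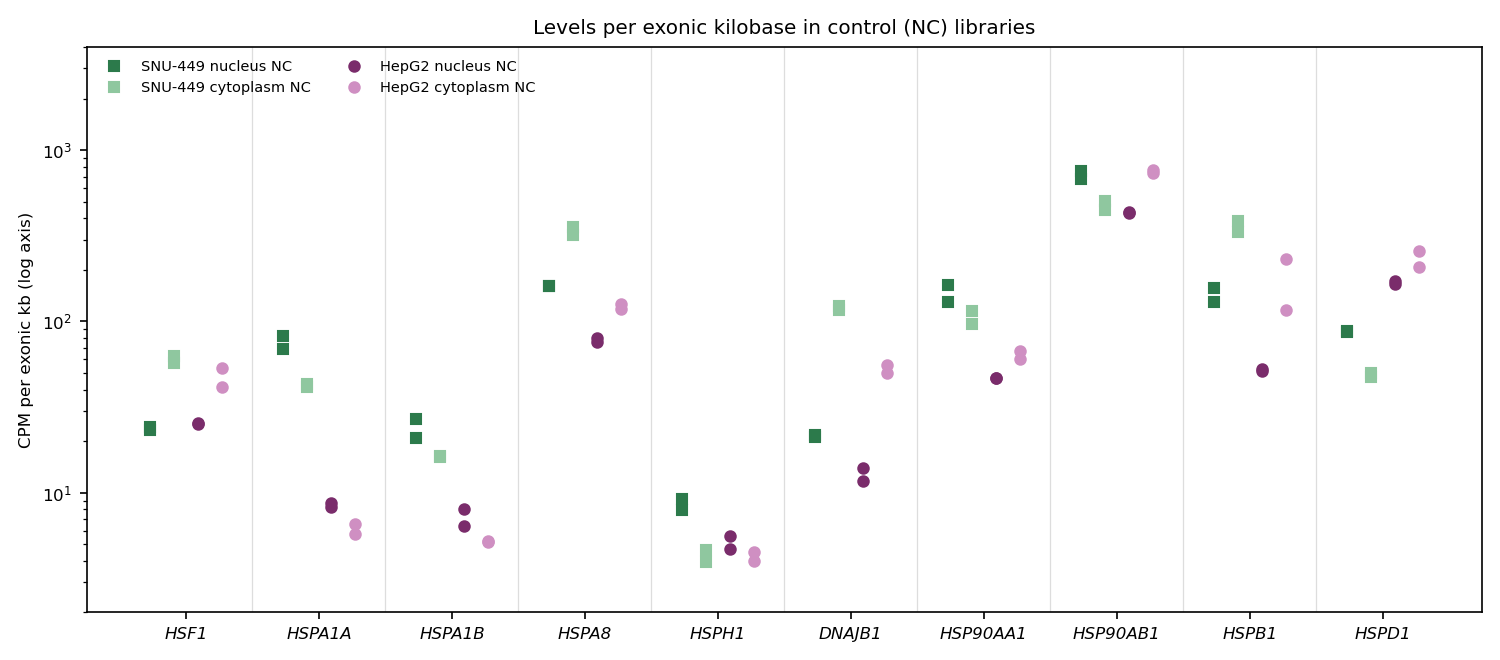
CPM per exonic kilobase (log axis) of the 10 genes in the NC libraries, 2 points for each line and fraction, SNU-449 as squares and HepG2 as circles. HSP90AB1 is highest in each group, and HSPA1A shows the widest gap between lines.

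Tested directly, the siPANAD effect differed between the lines for 4 of the 10 genes in the nucleus and for 7 in the cytoplasm. The difference was taken as the effect in SNU-449 minus that in HepG2, in a fit of all 16 libraries. In the nucleus 1 gene had a positive and 3 a negative difference, against 20.9% of all genes called, 11.3% positive and 9.61% negative. In the cytoplasm 1 had a positive and 6 a negative difference, against 18.2% called, 9.17% positive and 8.98% negative. In the nucleus it was -1.24 (SE 0.17; edgeR adjusted p = 1.9e-07) for HSPA1A, -1.04 for HSPA1B, -0.88 (SE 0.17; edgeR adjusted p = 6.6e-05) for DNAJB1 and 0.51 (SE 0.17; edgeR adjusted p = 0.024) for HSF1. In the cytoplasm it was -1.35 for HSPA1B, -1.27 for HSPA8, -1.24 for HSPA1A, -0.89 for HSPD1, -0.84 for DNAJB1, -0.68 for HSP90AB1 and 0.70 for HSF1, all called by the same edgeR test. The inducible HSP70 genes, DNAJB1 and, with the opposite sign, HSF1 were thus called in both fractions, and HSPA8, HSP90AB1 and HSPD1 in the cytoplasm but not the nucleus. The nuclear difference of HSF1 was lost without HepG2 siPANAD replicate 1, SNU-449 NC replicate 1 or either SNU-449 siPANAD replicate of the nucleus. For the ratio shift, 2 of the 10 genes were called, HSP90AB1 at 1.05 (SE 0.24; edgeR adjusted p = 0.027) and HSPA8 at 1.04 (SE 0.24; edgeR adjusted p = 0.020), both positive, against 0.484% of all genes called, 0.347% positive and 0.137% negative. The call of HSP90AB1 was lost in 11 of 23 alternatives and that of HSPA8 in 10, mostly ones that left out a single library, with values between 0.94 and 1.12.

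Across the 16 libraries the log2 CPM of HSPA1A and HSPA1B had a Pearson r of 0.95, HSPA8 and HSPB1 0.92, DNAJB1 and HSPB1 0.89, and HSF1 and DNAJB1 0.84. HSPA1A and HSPD1 had -0.78, and HSF1 had -0.01 with HSPA1A and -0.26 with HSPA1B. These describe libraries that share line and fraction, and the first pair shares sequence. The genes most like each one among 20397 with a symbol were IMP4 (0.988) for HSF1, ELF3 (0.986) for HSPA1A, NEDD4 (0.952) for HSPA1B, CDT1 (0.987) for HSPA8, PPP1R15B (0.961) for HSPH1, CSRP1 (0.994) for DNAJB1, NBN (0.973) for HSP90AA1, SNX18 (0.987) for HSPB1 and SNX5 (0.990) for HSPD1. HSP90AB1 was closest to its own pseudogene HSP90AB3P (0.963), which held few reads beside it: the largest pseudogene share of any of the 10 genes was that of HSPD1, 1.53% of summed reads in SNU-449, with up to 1.94% in a library, and 1.27% in HepG2.

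The wider chaperone network was described with 8 lists, which were chosen with earlier results of these data known. The lists share genes, so their counts are not independent of each other. STIP1, AHSA1 and FKBP4, for example, are counted both as heat-inducible targets and as co-chaperones. The counts below stand beside the shares of all genes called: 22.1% higher and 23.9% lower in the SNU-449 nucleus, 19.6% and 20.1% in the SNU-449 cytoplasm, 22% and 23.6% in the HepG2 nucleus, and 23.7% and 24.2% in the HepG2 cytoplasm. Among the heat-inducible HSF1 target genes other than the 10, 2 of 19 rose and 10 fell in the SNU-449 nucleus, 3 rose and 4 fell in the SNU-449 cytoplasm, 3 rose and 7 fell in the HepG2 nucleus, and 6 rose and 6 fell in the HepG2 cytoplasm. The SNU-449 cytoplasm counts lie near the all-gene shares of 19.6% and 20.1%. Their median log2 fold changes were -0.29, -0.00, -0.23 and -0.08, beside all-gene medians of -0.01, 0.04, -0.03 and -0.00. The polyubiquitin gene UBB rose in HepG2, to 89.6 ± 0.969 CPM with siPANAD, against 61.7 ± 4.17 CPM in NC in the nucleus (log2 fold change 0.54, SE 0.14), and to 1563 ± 113 CPM, against 902 ± 5.25 CPM in NC in the cytoplasm (0.79, SE 0.13; SD, n = 2 throughout; both called by edgeR's test). In SNU-449, UBB fell in the cytoplasm (-0.37, SE 0.10, called) and did not pass in the nucleus (0.21, SE 0.10). DNAJA1, another cytosolic J-domain protein, fell in SNU-449, to 59.5 ± 2.78 CPM with siPANAD, against 111 ± 10.7 CPM in NC in the nucleus (-0.90, SE 0.10), and to 90 ± 0.737 CPM, against 162 ± 12.1 CPM in NC in the cytoplasm (-0.84, SE 0.10), both called. DNAJA1 fell less in HepG2, at -0.32 (SE 0.13) in the nucleus and -0.44 (SE 0.13) in the cytoplasm, both called. SERPINH1, the collagen chaperone HSP47, fell in HepG2 by 1.28 in the nucleus and 1.37 in the cytoplasm on the log2 scale. In SNU-449, SERPINH1 fell in the cytoplasm (-0.41, SE 0.12) and did not pass in the nucleus (0.13, SE 0.11). The strictly inducible HSPA6 was at 0.723 ± 0.116 CPM in SNU-449 nuclei with siPANAD, against 1.63 ± 0.0481 CPM in NC (-1.16, SE 0.33, edgeR adjusted p = 0.0042), a low level at this depth. Its log2 fold change in the SNU-449 cytoplasm was -2.29 (SE 0.57, edgeR adjusted p = 0.0014).

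Of the other HSP70 and HSP110 genes, 0 rose and 6 of 12 fell in the SNU-449 nucleus, 2 rose and 5 fell in the SNU-449 cytoplasm, and in HepG2 2 of 10 rose and 5 fell in the nucleus and 3 rose and 5 fell in the cytoplasm. Of all genes, 23.9%, 20.1%, 23.6% and 24.2% fell in these comparisons. The endoplasmic reticulum HSP70, HSPA5, fell in all 4 comparisons: the log2 fold changes were -1.01 (SE 0.09) in the SNU-449 nucleus, -1.19 (SE 0.09) in the SNU-449 cytoplasm, -1.58 (SE 0.13) in the HepG2 nucleus and -1.77 (SE 0.13) in the HepG2 cytoplasm, each called by edgeR's test. In the HepG2 cytoplasm HSPA5 stood at 266 ± 7.74 CPM with siPANAD, against 906 ± 46.7 CPM in NC, while HSPA8 went the opposite way there. HYOU1, its partner in the same compartment, fell by 2.03 in the HepG2 cytoplasm and by 1.77 in the HepG2 nucleus on the log2 scale. In SNU-449 the HYOU1 values were -1.18 (SE 0.10) in the cytoplasm and -0.47 (SE 0.09) in the nucleus, both called. HSPA2 fell in SNU-449, to 19.1 ± 0.311 CPM with siPANAD, against 49.5 ± 2.44 CPM in NC in the nucleus (-1.38, SE 0.11), and to 8.8 ± 0.909 CPM, against 38 ± 1.78 CPM in NC in the cytoplasm (-2.11, SE 0.13).

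The co-chaperones of HSP70 and HSP90 numbered 24: 1 rose and 13 fell in the SNU-449 nucleus, 5 rose and 5 fell in the SNU-449 cytoplasm, 2 rose and 11 fell in the HepG2 nucleus, and 5 rose and 11 fell in the HepG2 cytoplasm. The SNU-449 cytoplasm counts are at the background, where 19.6% of all genes rose and 20.1% fell; in the other 3 the share of all genes that fell was 23.6% to 24.2%. ST13, which holds HSP70 in its client-binding state, also rose in the HepG2 cytoplasm. It stood at 623 ± 15.5 CPM in the HepG2 cytoplasm with siPANAD, against 237 ± 25.1 CPM in NC (log2 fold change 1.39, SE 0.13; edgeR adjusted p = 4.2e-09), and at 80.6 ± 2.37 CPM in the nucleus, against 58.1 ± 7.76 CPM in NC (0.47, SE 0.14), a ratio shift of -0.92 (SE 0.19; edgeR adjusted p = 0.0025). CDC37, which delivers kinases to HSP90, fell in all 4 comparisons. In the cytoplasm it fell by 0.56 in SNU-449 and 0.91 in HepG2 on the log2 scale. Its nuclear values were -0.34 (SE 0.09) in SNU-449 and -0.96 (SE 0.15) in HepG2, both called. HSP90B1, the HSP90 of the endoplasmic reticulum, fell in all 4 comparisons by 0.53 to 1.45 on the log2 scale, the largest fall being in the HepG2 cytoplasm.

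Among 14 genes of the cytosolic chaperonin TRiC and its partner prefoldin, 0 rose and 7 fell in the SNU-449 nucleus, 1 rose and 4 fell in the SNU-449 cytoplasm, 1 rose and 9 fell in the HepG2 nucleus, and 4 rose and 4 fell in the HepG2 cytoplasm, where 23.7% of all genes rose and 24.2% fell, close to the counts of this list. CCT5 fell by 0.84 in both SNU-449 fractions. It also fell in HepG2, at -0.66 (SE 0.13) in the nucleus and -0.58 (SE 0.13) in the cytoplasm, both called. CCT4 rose by 0.68 (SE 0.13, edgeR adjusted p = 1.3e-04) in the HepG2 cytoplasm. Of 12 mitochondrial chaperones and proteases other than HSPD1, 1 rose and 5 fell in the SNU-449 nucleus, 2 rose and 6 fell in the SNU-449 cytoplasm, and in HepG2 0 rose with 9 lower in the nucleus and 8 lower in the cytoplasm, beside 23.6% and 24.2% of all genes lower there. HSPA9, the mitochondrial HSP70, stood at 364 ± 11 CPM in the HepG2 cytoplasm with siPANAD, against 689 ± 73.4 CPM in NC (log2 fold change -0.92, SE 0.13; edgeR adjusted p = 2.4e-06), opposite to HSPD1 in the same fraction. The HSF factors and regulators had 2 of 7 higher and 2 lower in the SNU-449 nucleus, 4 higher and 0 lower in the SNU-449 cytoplasm, 3 higher and 1 lower in the HepG2 nucleus, and 1 higher and 1 lower in the HepG2 cytoplasm, too few genes to set against the shares of all genes. HSBP1, which binds HSF1 and limits its activity, rose in the cytoplasm of both lines, to 157 ± 2.8 CPM with siPANAD, against 96.9 ± 12.9 CPM in NC in SNU-449 (0.70, SE 0.10), and to 115 ± 12.7 CPM, against 56 ± 9.61 CPM in NC in HepG2 (1.03, SE 0.13). In the nucleus it fell in SNU-449 (-0.30, SE 0.11) and rose in HepG2 (0.45, SE 0.14), both called by edgeR's test.

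Among 23 other HSP40 genes, 3 of 22 tested rose and 9 fell in the SNU-449 nucleus, 2 rose and 8 fell in the SNU-449 cytoplasm, 3 of 23 rose and 11 fell in the HepG2 nucleus, and 5 rose and 8 fell in the HepG2 cytoplasm. Of all genes, 46%, 39.7%, 45.6% and 47.9% were called in either direction in the same 4 comparisons. DNAJB11, the J-domain partner of HSPA5, fell in SNU-449 by 0.98 in the nucleus and 1.16 in the cytoplasm on the log2 scale. In HepG2 it fell by 1.04 in the cytoplasm, and its nuclear value was -0.76 (SE 0.12), also called. DNAJB4, a close relative of DNAJB1, rose in HepG2 by 0.98 (SE 0.18) in the nucleus and 0.71 (SE 0.22) in the cytoplasm. In SNU-449 it rose by 0.36 (SE 0.14) in the nucleus and did not pass in the cytoplasm (-0.00, SE 0.16). DNAJB5 rose in HepG2 by 0.98 (SE 0.38) in the nucleus and 1.29 (SE 0.37) in the cytoplasm, both called. In SNU-449 DNAJB5 fell, at -0.65 (SE 0.17) in the nucleus and -0.81 (SE 0.14) in the cytoplasm, both called. The other small heat shock proteins were mostly too low to test: 3 of 9 in SNU-449 and 6 of 9 in HepG2 passed the filter, with 0 to 1 called in each comparison.

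**Figure D5:**
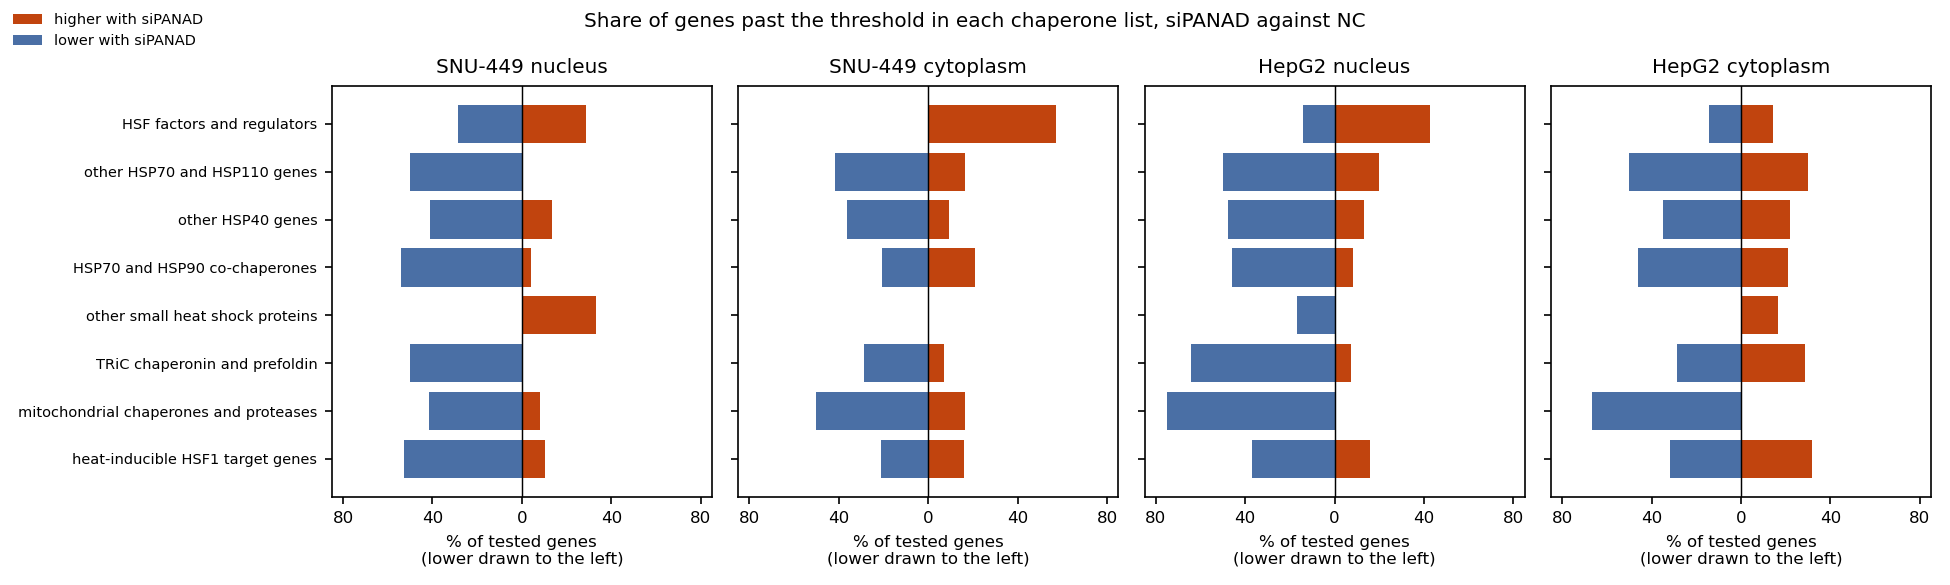
Percent of the tested genes of each list called higher (orange, right of 0) or lower (blue, left of 0) with siPANAD, in 4 comparisons. In HepG2 the bars of the mitochondrial list run to the left alone, with 9 of 12 genes lower in the nucleus and 8 of 12 in the cytoplasm.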

How the data were processed

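The authors deposited raw read counts per gene, 1 table per cell line, with Ensembl identifiers. Per the submitters' processing notes, Trim Galore 0.6.4, HISAT2 2.2.1 and the hg38 genome were used; which program counted the reads, by which annotation and with which strand setting, is not given in the sources used here. Libraries were directional per the labels' protocols, but since use of strand in counting is not stated, overlaps with genes on the other strand are given. ANK2, whose row was split by line breaks in both tables, was left out. Positions and exon lengths came from GENCODE release 29 on GRCh38. Symbols came from a separate gene name reference, with older symbols matched to current ones.

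Counts were fitted in R 4.3.3 with edgeR 4.0.16: filterByExpr (minimum count 10), TMM scaling, robust glmQLFit and glmQLFTest, two-sided, with Benjamini-Hochberg adjustment over all genes tested. The 8 libraries of a line were fitted together with 1 mean per group, and all 16 for comparisons between lines. The fit was also run on simulated counts in which few genes changed, as many up as down. With so many genes called in the real counts, that run cannot check the scaling. Standard errors are on the log2 scale. Each was back-calculated as the absolute log2 fold change over the square root of the test's F statistic. The 10 genes, the 8 lists and the tests were chosen with earlier results of these data known. Every one of the 10 genes passed the filter. Named genes were these 10 and the genes with the most similar profiles. The rest were a choice from the pseudogenes of the 10 and the 2 largest rises and falls per list and comparison. Others that met this rule, such as HSPA1L, PFDN2, PFDN5 and HSF4, are not described. HSPA5 in SNU-449 and HSPE1 in HepG2 are named beyond that rule, after their values were seen. Values of named genes in further comparisons were also added after they were seen. Alternatives were RLE size factors, upper-quartile scaling, no filter, DESeq2 1.42.0, a replicate block, only the groups compared, each library left out, and near-identical copies summed.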

Additional observations from a re-analysis of the deposited data

Results flagged for a closer look

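The siPANAD effect was called different between the fractions of a line for 6 results. Of all genes, 20.2% were called for this shift in SNU-449 and 9.89% in HepG2. The SNU-449 calls of HSP90AA1 and HSPB1 were lost in several alternatives, as described above. The ratio shift (nuclear minus cytoplasmic effect, log2) was -0.60 for HSPA8, -0.45 for HSP90AA1 and -0.37 for HSPB1 in SNU-449, and -1.61 for HSPA8, -1.32 for HSP90AB1 and -0.92 for HSPD1 in HepG2, each past the threshold in edgeR's quasi-likelihood test.

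The siPANAD effect was called different between the lines, by the test of the difference itself, in 13 results, given as SNU-449 minus HepG2. In the nucleus these were -1.24 for HSPA1A, -1.04 for HSPA1B, -0.88 for DNAJB1 and 0.51 for HSF1. In the cytoplasm they were -1.24 for HSPA1A, -1.35 for HSPA1B, -1.27 for HSPA8, -0.84 for DNAJB1, -0.68 for HSP90AB1, -0.89 for HSPD1 and 0.70 for HSF1. For the ratio shift they were 1.04 for HSPA8 and 1.05 for HSP90AB1. Of all genes, 20.9% were called for the nuclear difference, 18.2% for the cytoplasmic difference and 0.484% for that of the ratio shift. The nuclear HSF1 difference and both ratio shift differences were lost in several alternatives, as described above. Groups of 2 libraries are too small for a search for single outlying samples.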

How the results depend on the processing

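With the labels' numbers as a replicate block, 1 of the 10 genes instead of 2 was called for the line difference of the ratio shift, and the block changed no other count of calls by over 1.5 times. It ended the HepG2 nuclear call of HSPD1 and the SNU-449 ratio shift of HSPB1, and HSPB1 passed in the HepG2 cytoplasm. The labels give no pairing of the replicate numbers. Between the groups of a line, the differences of replicate 1 from replicate 2 over the genes tested had a Pearson r of -0.125 to 0.0845. With 1 such difference per group, these values cannot show whether same-numbered libraries were paired. Upper-quartile scaling left 3 instead of 5 calls in the SNU-449 nucleus; it moved the median of all genes by 0.11 in the HepG2 cytoplasm, 0.25 and 0.21 in the NC fraction ratios of HepG2 and SNU-449, and 0.13 in the cytoplasmic line comparison. Leaving out 1 library gave 2 to 6 calls in the SNU-449 nucleus, 1 to 4 for the SNU-449 ratio shift, and 0 to 3 for its line difference. HSPA8, HSP90AB1 and HSPD1 kept the HepG2 shift, and HSPA8 that of SNU-449, in all 14 alternatives.

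The sign turned only for uncalled values near 0. These were HSPB1 in the HepG2 nucleus (0.06 with upper-quartile scaling, 0.01 with only the groups compared), HSPA1A (0.10 with no filter) and HSPA1B (-0.03 with upper-quartile scaling) for the HepG2 shift, and HSPA1A for the SNU-449 shift (0.05 with copies summed). Without 1 library the same HSPB1 value ran from -0.07 to 0.01; the HepG2 shifts of HSF1, HSPA1A and HSPA1B from -0.11 to 0.30, -0.11 to 0.13 and -0.15 to 0.17; HSF1 in the SNU-449 cytoplasm from -0.01 to 0.12; HSP90AA1 in the SNU-449 nucleus from -0.24 to 0.09; and the SNU-449 shifts of HSPA1A and HSPH1 from -0.16 to 0.08 and -0.21 to 0.03. The cause was not tested. With 2 libraries per group, small changes are weakly measured.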
